A study of Mus musculus with 96 samples.

Results

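Hc is the mouse gene for complement component C5. It was taken as the 1 gene, of 38924 in the deposited tables, that carries the symbol Hc (ENSMUSG00000026874). Each mouse has 1 value for its NOD allele and 1 for its PWK allele, so the sum of both is its total level and the PWK part of that sum is its PWK share. Liver RNA had been sequenced from 48 male F1 mice of the reciprocal crosses between the inbred strains NOD/ShiLtJ and PWK/PhJ, fed 1 of 2 diets and killed at 1 of 2 ages. The 8 groups of 6 mice were older NODxPWK F1 mice on the high and on the normal vitamin D diet, younger NODxPWK F1 mice on each diet, and the same 4 groups of PWKxNOD F1 mice. The high diet held 0.050 g of cholecalciferol per kg and the normal diet 0.009 g per kg. The age label is 24 or 25 in the older and 8 in the younger mice and carries no unit, and the protocol gives another age for the younger mice, so only "older" and "younger" are used here. Every mouse carried 1 NOD and 1 PWK copy of each autosomal gene, and the strain written first in a cross was taken as the dam. All mice were males, so nothing here bears on females, and no pure NOD or PWK mouse was among them.

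C5 is a plasma protein made mainly by hepatocytes. The C5 convertases, which are built from fragments of C3 with C4 and C2 or with factor B, cleave it into C5a and C5b. C5a is a small peptide that attracts and activates leukocytes through its receptors, and C5b binds C6, C7, C8 and C9 to build the membrane attack complex. NOD is among the inbred strains that are known to lack C5 in plasma, through a small frameshift deletion in an early coding exon of Hc.

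The exon that holds the known deletion is shown because it is the difference between functional and C5-deficient Hc alleles. Hc lies at chr2:34983331-35061438 on the minus strand (GRCm38), and the exon is exon 6 of 41 of the GENCODE M21 transcript, at chr2:35043188-35043270. Both lines run 5′ to 3′ on the coding strand. The reference exon has 83 bases, and its capitals mark the 2 bases, 62 and 63 counted from the 5′ end of the exon, that are absent in the deficient allele (chr2:35043208-35043209). The second line is the reference exon with those 2 bases taken out by calculation, and its capitals mark the stop codon that then stands in frame.
Hc exon, reference: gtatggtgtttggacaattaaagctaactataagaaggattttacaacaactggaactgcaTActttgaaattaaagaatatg
Hc exon, deletion applied: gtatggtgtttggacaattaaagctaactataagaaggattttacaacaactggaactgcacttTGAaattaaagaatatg
The reference transcript encodes 1680 codons before its stop, and 216 codons remain before the stop once the deletion is applied. The deposited tables count reads per gene and allele, so they do not show whether reads held these bases, and no sequence of the NOD or PWK mice was used here.

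The libraries held between 2025857 and 7480778 counts per mouse, and Hc held between 918 and 4268 of them. Levels are given as CPM, counts scaled to 1000000 counts of that mouse over both alleles. Hc ranked 237 of 38924 genes by mean CPM and held 0.048% of all counts. Of the 6 hepatocyte markers 5 were matched, with mean levels between 4355 and 64259 CPM, whereas the 4 neutrophil markers had means of at most 0.39 CPM. A male's X chromosome is maternal, and X-linked reads credited to the strain of the sire were therefore misassigned. Over 266 X-linked genes these made up a median of 4.21% of counts in NODxPWK mice (3.93% to 4.91%) and 4.73% in PWKxNOD mice (3.94% to 6.19%). The antisense gene Gm13449 lies inside Hc on the other strand and shares 76 exonic bases of the 6265 of Hc. The libraries were unstranded, so reads there cannot be told apart, and Gm13449 itself had a mean of 1.33 counts per mouse.

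The PWK allele supplied about 3 of every 4 Hc counts in the liver of every F1 mouse. The PWK share was 74.3% ± 2.09 (SD, n = 48), with a lowest value of 69.6%, a median of 74.6% and a highest value of 79.3%. The 95% Wilson interval of a single mouse was 2.57 to 5.83 percentage points wide, which covers counting error only. It takes every count as telling the alleles apart. Reads that do not are divided by the method, so the counting error may be larger. The PWK allele alone had a lowest level of 279.0, a median of 354.3 and a highest level of 536.8 CPM, against 75.5, 120.3 and 172.4 CPM for the NOD allele. All 48 PWK levels were above all 48 NOD levels. The log2 ratio of PWK over NOD was 1.53 ± 0.02 (SE), a 2.90-fold difference, with an adjusted p of 1.16e-41 in edgeR's quasi-likelihood test over 9362 autosomal genes. An adjusted p of at most 0.05 was reached by 43.6% of those genes, so passing the threshold was common.

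**Figure D1:**
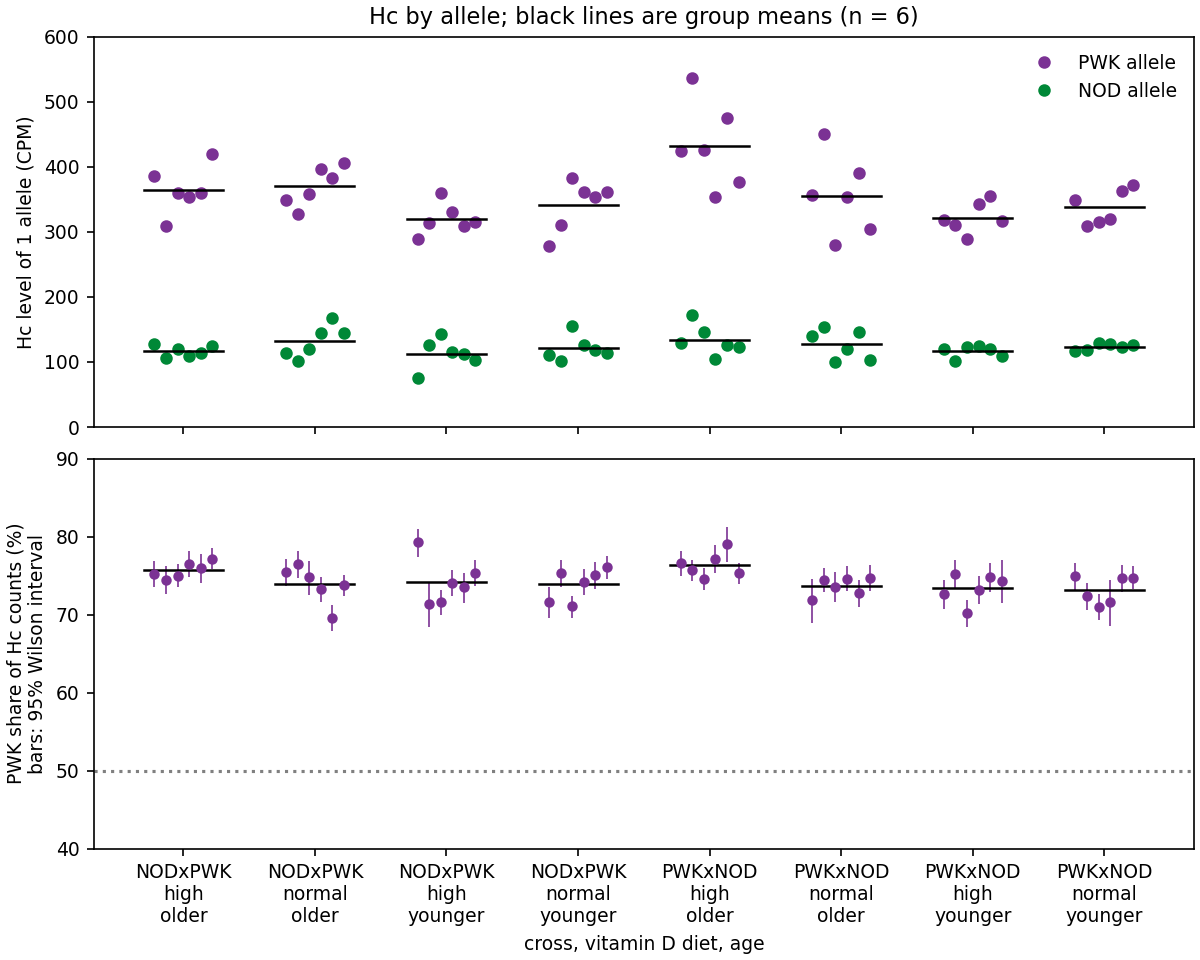
Hc level of each allele in CPM (upper panel) and PWK share of Hc counts in percent with 95% Wilson intervals (lower panel), 1 point per mouse, for the 8 groups of 6 mice, black lines being group means. PWK levels of 279.0 to 536.8 CPM lie above NOD levels of 75.5 to 172.4 CPM in every group, and every share lies above the dotted line at 50%.

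In NODxPWK mice the lowest, median and highest PWK shares were 74.5%, 75.6% and 77.2% in older mice on the high diet, and 69.6%, 74.3% and 76.4% in older mice on the normal diet. The younger NODxPWK mice had 71.4%, 73.8% and 79.3% on the high diet, and 71.1%, 74.6% and 76.1% on the normal diet. The lowest and the highest share of all 48 mice were thus both in this cross, and its 4 groups overlapped. In PWKxNOD mice the corresponding shares were 74.5%, 76.1% and 79.1% in older mice on the high diet, and 71.9%, 74.0% and 74.7% in older mice on the normal diet. The younger PWKxNOD mice had 70.2%, 73.8% and 75.2% on the high diet, and 71.0%, 73.5% and 74.9% on the normal diet. Among these, 1 of the 6 older mice on the high diet lay within the range of the older mice on the normal diet and the other 5 lay above it.

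The excess of the PWK allele was of like size whichever parent gave it. The PWK share was 74.4% ± 2.21 in NODxPWK mice, which have a PWK sire, and 74.2% ± 2.00 in PWKxNOD mice, which have a PWK dam (SD, n = 24 each). The maternal over paternal log2 ratio was -0.010 ± 0.021 (SE), with an adjusted p of 1 in edgeR, where 0.267% of genes passed. Scaling each allele's counts to their own total moved this ratio to -0.15 with an adjusted p of 5.85e-08. It moved the median of all 9362 genes to -0.14 as well, and Hc lay at -0.010 relative to that median. On the same scaling the PWK over NOD ratio was 1.69, which was 1.54 above the shifted median of all genes.

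Of the 9362 genes, 2.89% had a higher PWK over NOD ratio than Hc and 5.57% had a larger ratio in either direction. The median size of the log2 ratio over all genes was 0.21. The 9362 genes include some whose reads hardly tell the alleles apart and are shared equally, which lowers these percentages and this median. In 558 of the genes the PWK share varied less than 0.1 times as much, in variance within groups, as counting error gives. The genes just above Hc were Urad (1.58), Pnpla3 (1.57), 5830473C10Rik (1.57), Hmcn1 (1.55) and Cyren (1.55), and those just below were Serpina1d (1.52), E2f1 (1.52), Ccdc157 (1.52), Etnppl (1.51) and Dpy19l3 (1.51), all in log2 of PWK over NOD. These 10 genes lie on other chromosomes than Hc, apart from E2f1 on chromosome 2. Among these 11 genes the PWK share of Hc had the smallest SD between mice, 2.09 percentage points, against 4.85 for Etnppl, which encodes a phospholyase of lipid metabolism, and 21.4 for Cyren. Hc and Serpina1d, an alpha-1-antitrypsin gene, also had the largest mean counts per mouse of the 11, 2502 and 17202, and Etnppl followed with 647. Serpina1d belongs to a family of near-identical copies, so its allele counts are uncertain. Within groups the PWK share of Hc varied 4.63 times as much, in variance, as counting error gives if every count tells the alleles apart. The median over all genes was 4.74 times. As not every read tells them apart, this excess need not be variation between mice.

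Of the 5 tested genes nearest to Hc on each side, within 253 kb, only Gsn had a larger PWK over NOD ratio than Hc. Going outward towards lower coordinates, the mean PWK share over 48 mice was 49.5% ± 5.53 for Cutal, 44.8% ± 11.2 for Psmd5, 52.4% ± 12.5 for Fbxw2, 63.0% ± 19.1 for Rabepk and 49.5% ± 3.44 for Hspa5 (SD). Going towards higher coordinates it was 49.5% ± 2.68 for AI182371, 47.8% ± 10.6 for Cntrl, 52.4% ± 7.61 for Rab14, 89.99% ± 5.87 for Gsn and 35.3% ± 6.01 for Stom. In edgeR's test Rabepk and Gsn, which encodes the actin-severing protein gelsolin, were higher from the PWK allele (log2 0.82 ± 0.21 and 3.33 ± 0.12, SE, adjusted p 0.00109 and 4.35e-26). Psmd5, which encodes a chaperone of proteasome assembly, and Stom, which encodes the membrane protein stomatin, were lower from the PWK allele (log2 -0.31 ± 0.10 and -0.87 ± 0.06, SE, adjusted p 0.00951 and 1.03e-17). The other 6 did not pass, and a share near 50% is also what the method gives where few reads tell the alleles apart. AI182371, which lies 20.4 kb from Hc and had 1080 counts per mouse on average, had shares of 44.5% to 56.9%, all below the lowest share of Hc.

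**Figure D2:**
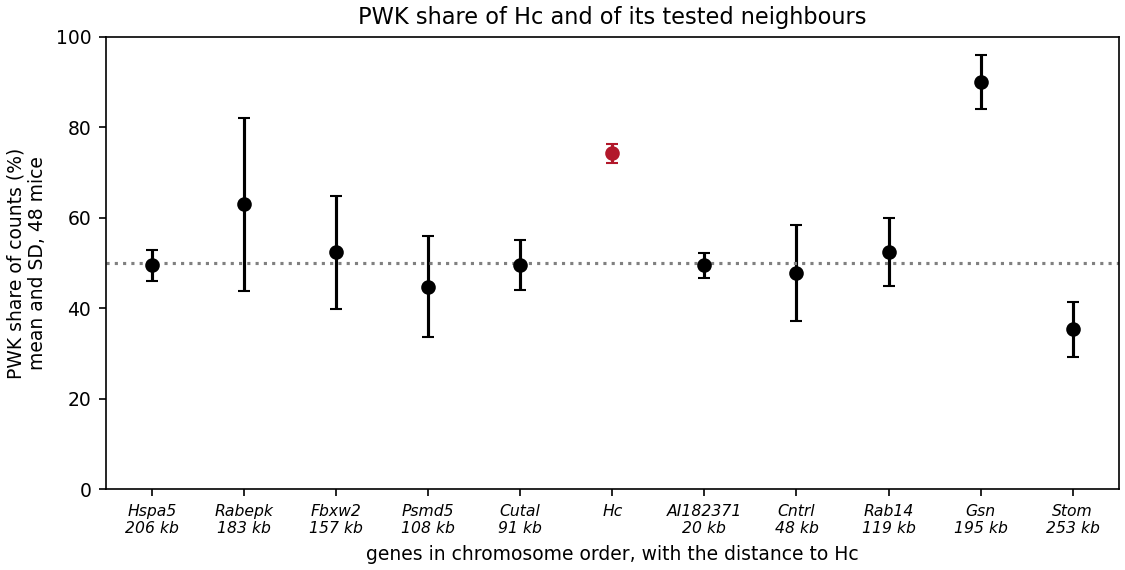
Mean PWK share of counts in percent, with SD over 48 mice, for Hc (red) and the 5 tested genes on each side of it in chromosome order, with the distance to Hc under each name. Hc stands at 74.3%, between Cutal and AI182371, which both stand at 49.5%.

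The total level of Hc was higher in older than in younger mice by a small amount. Its mean was 508.0 ± 73.2 CPM at the older age and 448.6 ± 39.6 CPM at the younger age (SD, n = 24 each), 1.13-fold. The lowest, median and highest levels were 380.6, 498.4 and 709.2 CPM in older mice, against 365.1, 445.9 and 538.0 CPM in younger mice. The ages overlapped, with 9 of 24 older mice above the highest younger mouse and 20 of 24 above the median of the younger mice. The log2 difference was 0.20 ± 0.06 (SE), with an adjusted p of 0.0131 in edgeR's test over 11979 genes, of which 12% passed and 6.42% passed as higher in older mice. In bulk liver, a change in the number of cells that make a transcript and a change in the transcript per cell cannot be told apart.

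**Figure D3:**
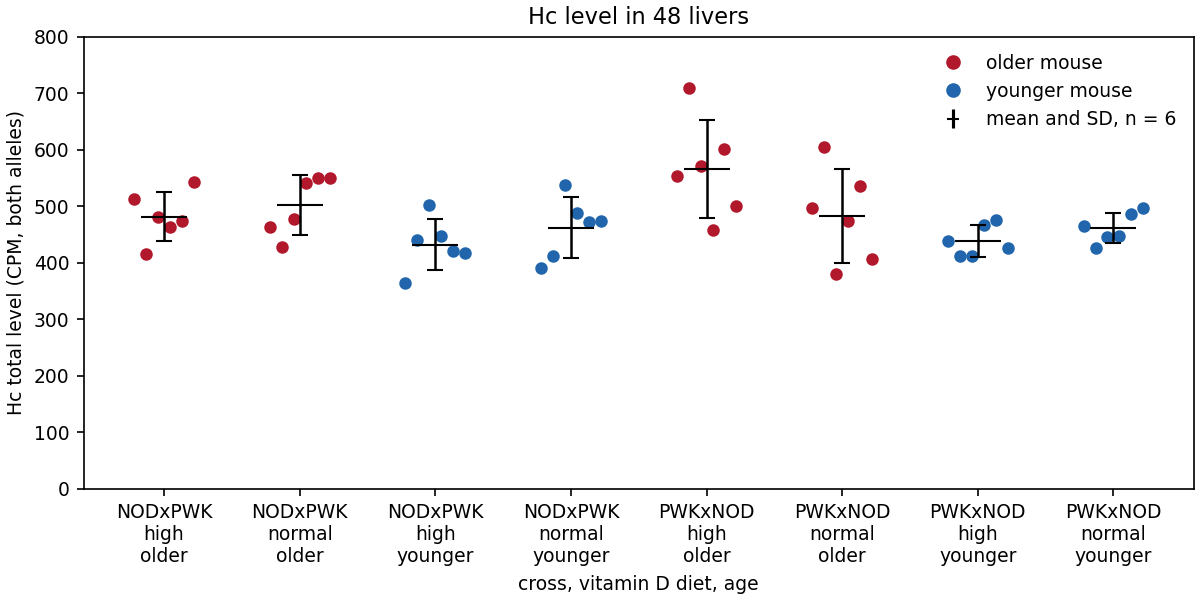
Hc total level in CPM of both alleles, 1 point per mouse, older mice in red and younger mice in blue, with mean and SD of each group of 6. The older PWKxNOD mice on the high diet reach the highest mean, 565.6 CPM, and the ranges of neighbouring groups overlap.

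The age difference kept its sign in every subset of mice run, each with fewer mice, but did not pass the threshold in all of them. It missed the threshold without lane set 1 (log2 0.17, adjusted p 0.0848) and without lane set 5 (log2 0.19, adjusted p 0.0684), a lane set being the 8 mice, 1 of each group, that shared flowcell lanes. Within the 6 lane sets, of 4 older and 4 younger mice each, the fold of the means ran between 1.01 and 1.28. Without the 7 mice labelled 25, all older and on the normal diet, the log2 difference was 0.13. Only the mouse of lane set 3 then remains among older NODxPWK mice on the normal diet. Each result without the mice labelled 25 leans on that library. These 7 mice had Hc levels of 428.4 to 604.6 CPM, and the other 5 older mice on the normal diet had 380.6 to 535.9 CPM. Transcripts of exocrine pancreas stood high in 8 mice, and without these the log2 difference was 0.16 with an adjusted p of 0.0604. The summed level of the 10 pancreas markers had a lowest value, median and highest value of 25.9, 39.5 and 228.1 CPM in older mice, against 16.4, 27.1 and 1543 CPM in younger mice, and its part in the result was not tested. The 8 mice had Hc levels of 411.3 to 709.2 CPM, the highest level of all 48 mice among them.

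By cross and diet, older over younger means differed 1.29-fold in PWKxNOD mice on the high diet (565.6 ± 86.9 against 438.6 ± 27.5 CPM) and 1.05-fold in PWKxNOD mice on the normal diet (482.8 ± 82.7 against 461.2 ± 26.8 CPM). In NODxPWK mice they differed 1.11-fold on the high diet (481.6 ± 43.9 against 432.2 ± 44.8 CPM) and 1.09-fold on the normal diet (502.1 ± 52.5 against 462.3 ± 53.7 CPM, SD, n = 6 in each group). In PWKxNOD mice on the high diet 5 of 6 older mice lay above the highest younger mouse, and in the other 3 pairs of groups 2 or 3 of 6 did. The age difference did not pass the test for a dependence on diet (age by diet interaction, log2 0.23 ± 0.11, adjusted p 0.400, 0.618% of genes passing in edgeR). It did not pass for a dependence on cross either (age by cross interaction, log2 -0.04 ± 0.11, adjusted p 0.978, 0.0501% of genes passing in edgeR).

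The vitamin D diet did not move the total level of Hc past the threshold. The level was 365.1 to 709.2 CPM on the high diet with a median of 465.2, against 380.6 to 604.6 CPM on the normal diet with a median of 473.9, so that the ranges lay over each other. The means were 479.5 ± 74.9 CPM on the high and 477.1 ± 56.2 CPM on the normal diet (SD, n = 24 each). The log2 difference of high minus normal was 0.02 ± 0.06 (SE, adjusted p 0.973, 0.342% of genes passing in edgeR). In older mice alone the level averaged 523.6 ± 78.9 CPM on the high and 492.5 ± 66.8 CPM on the normal diet (SD, n = 12 each), a log2 difference of 0.13 ± 0.08 (SE, adjusted p 0.421, 3.71% of genes passing in edgeR). This difference was 0.27 without the mice labelled 25, 0.078 without lane set 3, 0.069 when the mice with pancreas transcripts were left out and 0.061 with the clock score of the methods as a covariate, and it passed under none of these. In younger mice alone it averaged 435.4 ± 35.6 CPM on the high and 461.7 ± 40.4 CPM on the normal diet (SD, n = 12 each), a log2 difference of -0.10 ± 0.08 (SE, adjusted p 0.996). There 0% of genes passed in edgeR and 10 genes in DESeq2. Before adjustment 573 of 11979 were at or under 0.05 in edgeR, fewer than the 1 in 20 that no difference at all would give.

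The cross direction did not move the total level of Hc past the threshold. The total was 365.1 to 550.9 CPM in NODxPWK mice with a median of 472.9, against 380.6 to 709.2 CPM in PWKxNOD mice with a median of 470.4. The means were 469.5 ± 52.6 CPM in NODxPWK and 487.1 ± 76.5 CPM in PWKxNOD mice (SD, n = 24 each). The log2 difference of NODxPWK minus PWKxNOD was -0.10 ± 0.06 (SE, adjusted p 0.319, 10.7% of genes passing in edgeR). This fit scales counts by TMM, so its value need not match that of the CPM levels. The high diet was 1.17-fold over the normal diet in older PWKxNOD mice and 0.96-fold in older NODxPWK mice. The test for a dependence of the diet difference on cross gave a log2 value of -0.20 ± 0.11 (SE, adjusted p 0.418, 0.125% of genes passing in edgeR).

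Ranked by the mean of log2(CPM + 0.5), the groups ran, from the highest, older PWKxNOD high, older NODxPWK normal, older NODxPWK high, older PWKxNOD normal, younger PWKxNOD normal, younger NODxPWK normal, younger PWKxNOD high and younger NODxPWK high. The 4 older groups thus took the first 4 ranks. None of the 7 neighbouring pairs in this order differed beyond the spread between mice (exact permutation test, two-sided, raw p from 0.167 to 0.978, all adjusted p 0.978). The order was taken from the same values, so these pairs have close means by construction. The test therefore says nothing about groups further apart in the order. Ranked by PWK share, older PWKxNOD high came first at 76.4% ± 1.60 and older NODxPWK high next at 75.7% ± 1.01, and the other 6 groups had means between 73.2% and 74.2%. None of the 7 neighbouring pairs differed in share either, with the same limit (exact permutation test, two-sided, raw p from 0.253 to 0.998, all adjusted p 0.998).

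Split by allele, the PWK allele had 380.7 ± 56.6 CPM in the older and 330.3 ± 28.6 CPM in the younger mice, 1.15-fold. The NOD allele had 127.3 ± 20.5 CPM in the older and 118.3 ± 15.1 CPM in the younger mice, 1.08-fold (SD, n = 24 each). Of 24 older mice, 21 lay above the median of the younger mice for the PWK allele and 16 for the NOD allele. The allele ratio itself did not pass the test with age, at 74.9% ± 1.93 PWK share in older and 73.7% ± 2.10 in younger mice (log2 0.09 ± 0.04, SE, adjusted p 0.727, 0.705% of genes passing in edgeR and 0.363% as higher in older mice). Within the 6 lane sets the share of older minus younger mice differed by -0.17 to 3.52 percentage points, and the log2 difference was 0.060 without lane set 3 and 0.043 without the mice with pancreas transcripts. It did not pass with diet, at 74.9% ± 2.20 on the high and 73.7% ± 1.80 on the normal diet (log2 0.10 ± 0.04, SE, adjusted p 1, 0.0214% of genes passing in edgeR). In older mice the share was 76.1% ± 1.32 on the high and 73.8% ± 1.80 on the normal diet, against 73.8% ± 2.37 and 73.5% ± 1.88 in younger mice (SD, n = 12 each). The interaction of age and diet on the ratio was 0.15 ± 0.08 (log2, SE, adjusted p 1). For this interaction 0% of genes passed in edgeR. Before adjustment 368 of 9362 were at or under 0.05, fewer than 1 in 20. Genes whose reads are shared equally between the alleles can hardly reach 0.05, which lowers this count.

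Mice with more Hc counts credited to the PWK allele tended to have more credited to the NOD allele. After the group means were removed, log2(CPM + 0.5) of the PWK allele and of the NOD allele correlated over 48 mice with a Pearson r of 0.731 and a Spearman rho of 0.734. The permutation p was 1e-05 for both, two-sided and the smallest that 100000 permutations can give, and it is the only relation of this family. Without the 2 mice farthest from the median PWK level the r was 0.723 with the same p. Both values of a mouse come from 1 library and share its total count. Reads that do not tell the alleles apart are divided over both, which can also tie the values together. The permutation test takes the values as separate measurements, and the part of the division in this r was not tested. Within single groups of 6 mice the r ran from 0.946 in older PWKxNOD mice on the normal diet to -0.053 in younger PWKxNOD mice on the normal diet, where the NOD levels spanned only 116.8 to 129.0 CPM.

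**Figure D4:**
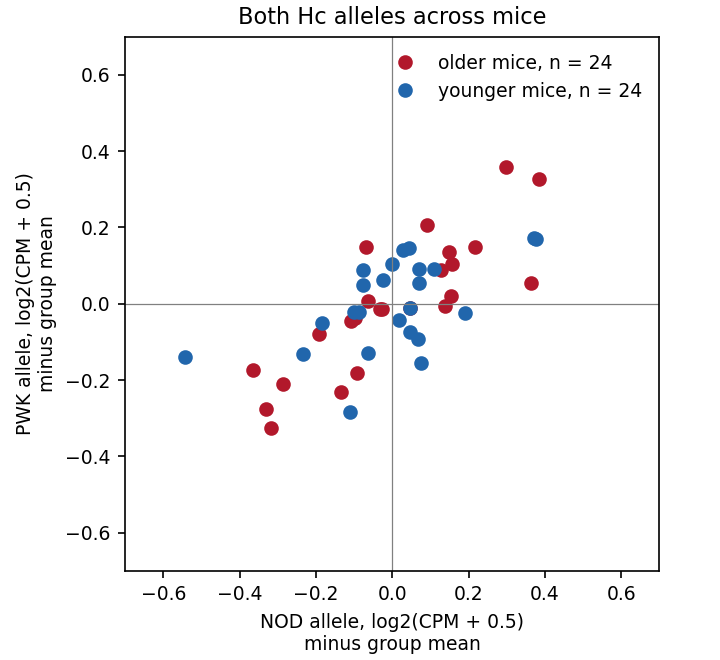
Deviation of each mouse from its group mean in log2(CPM + 0.5), NOD allele on the horizontal and PWK allele on the vertical axis, for 24 older (red) and 24 younger (blue) mice. The points run from lower left to upper right with a Pearson r of 0.731.

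The total level of Hc varied over mice most like that of AI182371, the neighbouring gene 20.4 kb away, with a Pearson r of 0.828 over 48 mice after removal of group means on the log2(CPM + 0.5) scale. Next came Osbpl9 (r 0.769), which encodes an oxysterol-binding protein, Aadat (r 0.763), an aminotransferase, Cyp7b1 (r 0.763), a hydroxylase of oxysterol and bile acid metabolism, and C9 (r 0.743), the pore-forming part of the membrane attack complex. These are the 5 highest of 9131 genes with a mean of at least 5 CPM, whose median r was -0.112, and they were picked for this likeness, so no test is given. None of the 5 passed for age, with log2 differences between -0.10 for Cyp7b1 and 0.12 for C9 (adjusted p 0.575 and 0.406 in edgeR).

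The other complement genes were counted in 5 lists, by role. Per kilobase of exon, Hc had a mean level of 76.3 CPM per kb, close to C8b at 80.5 and C4bp at 70.6 CPM per kb. C3, the central component that every pathway cleaves, had 1443 CPM per kb. Of 36 tested complement genes besides Hc, 11 were higher and 1 was lower in older mice, where 6.42% of all genes passed as higher and 5.59% as lower, with a median log2 difference of 0.10 where the median of all 11979 genes was -0.004. Without the 7 mice labelled 25 the median over the complement genes was 0.07. Without the 8 mice with pancreas transcripts 10 of 36 were higher and 1 lower. Of 33 tested for alleles, 7 were higher and 14 lower from the PWK allele, where 20.9% of all genes passed as higher and 22.8% as lower, with a median log2 ratio of -0.02 where the median of all genes was 0.00.

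In the terminal pathway, whose proteins assemble on C5b, 5 of 6 genes were tested. C8a, the alpha chain of C8, was higher in older mice (log2 0.26 ± 0.05, SE, adjusted p 0.000140 in edgeR) and C8b, its beta chain, was lower (log2 -0.25 ± 0.06, SE, adjusted p 0.00661 in edgeR). With the clock score as a covariate, none of the terminal genes passed as lower in older mice and 1 passed as higher. C8b also missed the threshold without lane set 3 (log2 -0.20, adjusted p 0.0813) and without lane set 6 (log2 -0.22, adjusted p 0.0566). C6, C8g and C9 did not pass, at log2 differences of 0.10, 0.10 and 0.12. All 5 passed for the allele ratio, 3 as higher and 2 as lower from the PWK allele, where 20.9% and 22.8% of all genes did. The PWK share was 64.1% ± 1.84 for C8a, 61.8% ± 4.67 for C6 and 51.6% ± 3.56 for C8g, against 37.8% ± 1.701 for C9 and 35.3% ± 2.62 for C8b (SD, n = 48), so Hc had the largest share from the PWK allele. C7 was at a mean of 1.07 CPM, under the filter on low counts. On the high diet in older mice, 3 of these 5 were higher than on the normal diet, where 1.9% of all genes passed as higher and 1.81% as lower, namely C9 (log2 0.49 ± 0.12), C8b (0.32 ± 0.09) and C8a (0.24 ± 0.07, SE, adjusted p 0.00982, 0.0372 and 0.0368 in edgeR). None of the 3 passed in this comparison when lane set 1, lane set 3 or the mice with pancreas transcripts were left out. The same held with the clock score as a covariate. Hc stood at 0.13 ± 0.08 in the same comparison and did not pass.

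Among the genes of the convertases, C3 (log2 0.18 ± 0.04), Cfb, which encodes factor B (0.18 ± 0.03), and C4a (0.92 ± 0.14) were higher in older mice (SE, adjusted p 0.000909, 8.99e-05 and 3.42e-06 in edgeR). Without the mice labelled 25, the log2 difference of C3 was 0.13. C2 (-0.06), C4b (0.10) and Cfp (0.02), which encodes properdin, did not pass. Cfd, the protease that cleaves factor B, had a mean of 0.06 CPM and was not tested. On the high diet in older mice, C2 was higher (log2 0.30 ± 0.07) and C3 lower (-0.19 ± 0.05, SE, adjusted p 0.00567 and 0.0318 in edgeR). Neither passed in this comparison with the clock score as a covariate, and no convertase gene passed as lower without the mice with pancreas transcripts. Over all lists, 5 of 36 tested genes were higher and 1 lower on the high diet in older mice, where 1.9% and 1.81% of all genes were. With the clock score as a covariate 0 of 36 were higher and 0 lower. Without the mice with pancreas transcripts 1 was higher and 0 lower. For alleles, C3 was at a PWK share of 50.1% ± 0.83 and did not pass, and C2 was at 37.2% ± 6.07, C4b at 49% ± 2.00, Cfb at 48.1% ± 2.24 and C4a at 3.66% ± 1.97 (SD, n = 48). C4a and C4b are near-identical copies, so how their reads were split is uncertain.

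Of the 12 genes that start the classical and lectin pathways, Mbl1, a mannose-binding lectin, was higher in older mice (log2 0.30 ± 0.05, SE, adjusted p 9.44e-05 in edgeR) and the other 11 did not pass. The next smallest p-values were those of C1ra (0.09 ± 0.04, adjusted p 0.0913) and C1s1 (0.07 ± 0.04, adjusted p 0.25), the proteases of C1. C1qa, C1qb, C1ra and Masp2 had a PWK share of 50% in all 48 mice, which is what equal sharing of uninformative reads gives. Of the 11 regulators 6 were higher in older mice and 5 did not pass, and the smallest p-values were those of Clu, C4bp and Serping1. Clu, or clusterin, binds forming membrane attack complexes (log2 0.20 ± 0.04), C4bp encodes the C4b-binding protein (0.26 ± 0.05), and Serping1 encodes the C1 inhibitor (0.17 ± 0.03, SE, adjusted p 3.91e-05, 5.57e-05 and 0.000210 in edgeR). These 3 passed under all 16 alternatives run, while the number of regulators higher in older mice was 5 without the mice with pancreas transcripts. The receptors for C5a and C3a are expressed mainly by leukocytes, and C5ar1, C5ar2 and C3ar1 had means of 1.245, 1.903 and 1.702 CPM. C3ar1 and C5ar2 were tested and did not pass for age, and C5ar1 was under the filter.

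**Figure D5:**
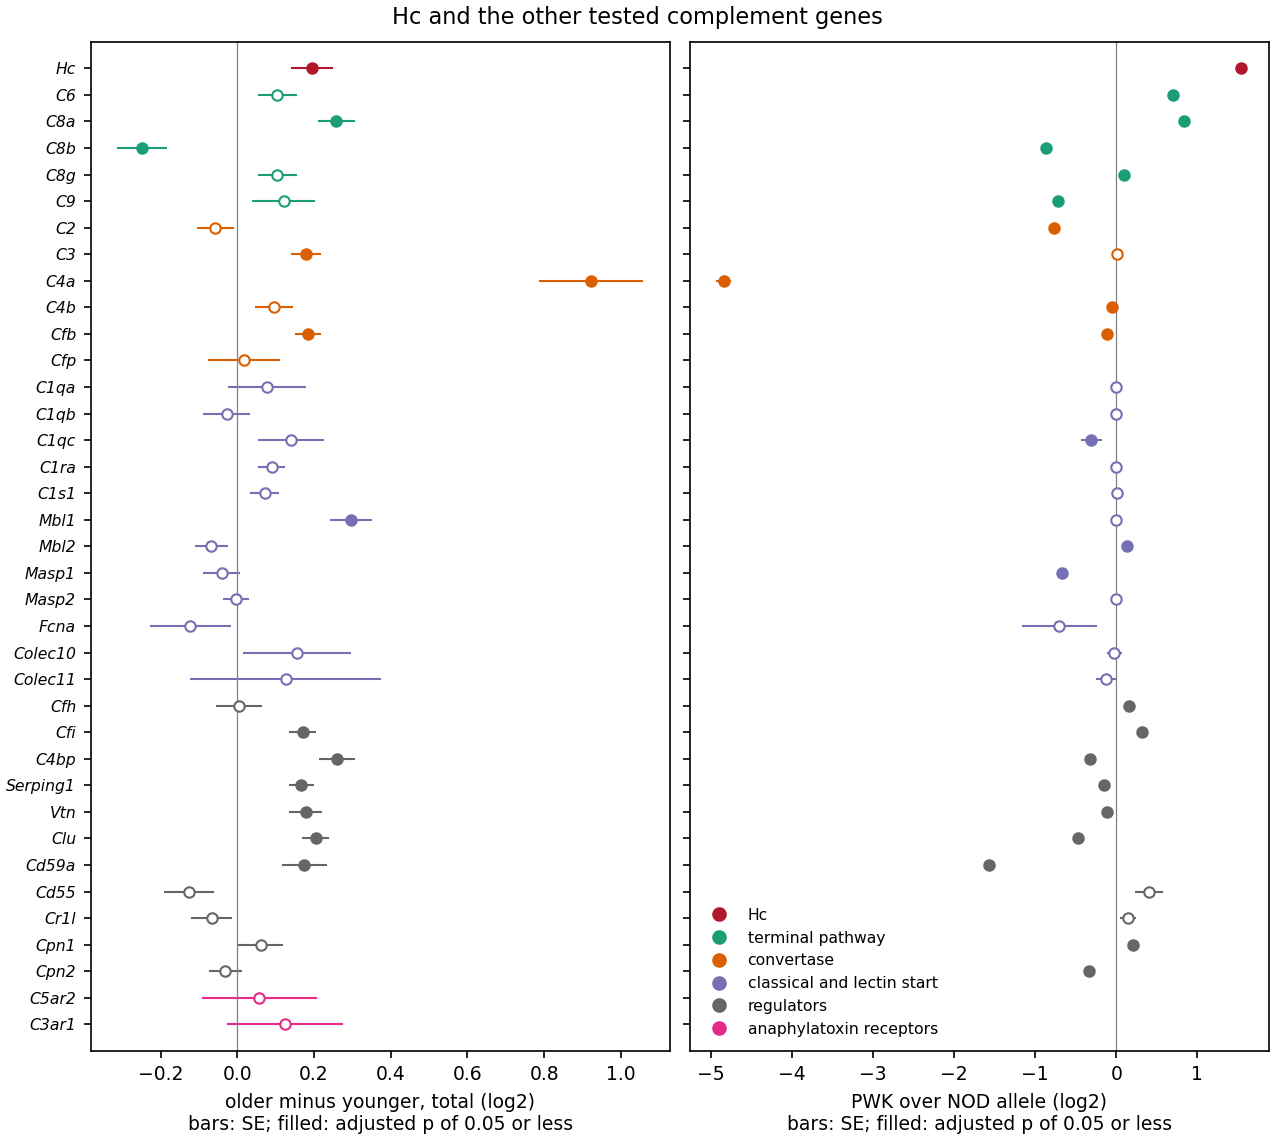
Log2 difference of older minus younger mice in total level (left) and log2 ratio of PWK over NOD allele (right) for Hc and the other tested complement genes, coloured by list, with SE bars and filled points where the adjusted p is at most 0.05. Hc has the highest PWK over NOD ratio, 1.53, and an age difference of 0.20 within the range of the other genes, -0.25 to 0.92.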

How the data were processed

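Liver RNA of 48 male F1 mice was measured by poly-A selected, unstranded RNA sequencing, per the labels' protocols. The 96 label entries are 2 flowcell runs of each mouse, and each mouse has 1 column in the deposited tables. The deposited values are expected counts, estimated by the authors per gene and allele, which need not be whole and are not scaled to depth. Per the labels, the tables come from EMASE, a method that divides reads over both parental alleles. The submitters' processing notes name CASAVA 1.7.0 and Bowtie 1.1.2, with GRCm38 and mm10 as builds. The annotation, the joining of runs and the EMASE version (not given in the sources used here) could not be checked. Of 38924 gene identifiers, 37607 were matched to GENCODE M21 (GRCm38) for symbols and positions, and the other 1317 held 0.159% of counts.

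Total expression was the sum of both alleles' expected counts, rounded to whole numbers, filtered with filterByExpr (11979 genes) and scaled by TMM. One model of 8 group means over 48 mice was fitted with the quasi-likelihood test of edgeR 4.0.16 in R 4.3.3, and each comparison is a two-sided contrast of it. For alleles, NOD and PWK counts of a mouse were 2 columns of equal library size, with a term for every mouse and, in each group, a coefficient for PWK over NOD. This fit took autosomal genes with a mean of at least 20 counts (9362 genes). P-values were adjusted by Benjamini and Hochberg over every gene tested, and 0.05 was the threshold. An SE is the log2 difference over the square root of its F statistic. The biological coefficient of variation was 16.6%. Correlations used scipy 1.17.1. Both tests were checked on simulated counts. The simulated alleles varied by counting error only, so that check does not cover the wider spread of the real shares.

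Libraries held 2025857 to 7480778 counts. The 48 mice are separate animals per the labels. Between mice of a group the chi-square per gene was 4.89 to 65.4, above the value of 1 that sampling noise gives. Replicate numbers mark lane sets, 1 mouse of every group per flowcell lane, so they pair mice by batch. Deviations from group means had a mean correlation of -0.016 in the 168 pairs within a lane set and 0.003 in other pairs.

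Hc, the complement lists and the marker lists were chosen with earlier results of these data known. Values are named for the terminal pathway and the convertase list, for the 3 smallest age p-values of the other lists, for the 5 tested neighbours on each side, for the 5 genes most like Hc over mice (mean CPM no lower than 5), and for the 5 genes next to Hc on each side in allele ratio. Alternatives were RLE size factors, DESeq2 1.42.0, other filters, unrounded counts, limma 3.58.1 on log2 allele ratios, scaling of each allele, the lane set as a block, subsets of mice, and a clock score as a covariate. That score is the mean log2 CPM of Per2, Per3, Dbp, Tef, Nr1d2 and Ciart minus that of Npas2, Arntl, Nfil3 and Clock. Leaving out the 8 mice with summed pancreas markers above 80 CPM was chosen after seeing the data. The exon sequence is that of the GENCODE M21 transcript.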

Additional observations from a re-analysis of the deposited data

How the results depend on the processing

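The PWK over NOD ratio of Hc stayed past the threshold under all 14 alternatives run, at log2 values of 1.52 to 1.69. The age difference stayed positive under all 16, from 0.13 to 0.26, and its lowest adjusted p was 0.00769 (DESeq2). Leaving out 1 lane set at a time gave 0.151 to 0.235, and it missed the threshold without lane set 1 (0.168) and without lane set 5 (0.185). It also missed it without the mice with pancreas transcripts (0.157). Without the mice labelled 25, which leaves only the mouse of lane set 3 in a group, the age difference was 0.126. With the lane set as a replicate block the age difference was 0.196 (adjusted p 0.0175), and the block changed no other call on Hc. The maternal over paternal ratio passed when each allele was scaled to its own total (-0.155), a scaling that moved the median of all genes by a like amount, and changed sign without the mice with pancreas transcripts (0.015). Other sign changes were among differences past no threshold. With the clock score these were the cross (0.034), the diet (-0.030) and the age by cross interaction (0.042). Without the mice with pancreas transcripts they were the diet (-0.023) and the age by cross interaction (0.071). Leaving out 1 lane set at a time gave -0.010 to 0.034 for the diet and -0.149 to 0.127 for the age by cross interaction. The cause of these changes was not tested. Neither pseudocount altered the order of groups or the correlation of the alleles (r 0.731 under each).

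The number of genes called also depended on the processing. The 1439 genes called for age were 740 with the clock score, and the 1281 called for cross were 62. The 445 called for diet in older mice were 53 with the clock score and 129 without the mice with pancreas transcripts. They were 290 without a count filter, and 176 at the least without 1 lane set. Counts ran from 0 to 125 for diet, from 0 to 164 for age by diet, from 0 to 90 for diet by cross, from 0 to 40 for age by cross and from 0 to 10 for diet in younger mice. For allele ratios they ran from 2684 to 5147 for PWK over NOD, from 16 to 2729 for maternal over paternal, from 39 to 69 for age, from 0 to 16 for diet and from 0 to 9 for age by diet. Depth limits the share of Hc in a single mouse to intervals 2.57 to 5.83 percentage points wide, if every count is taken as telling the alleles apart.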
